A study of Mus musculus with 12 samples.

Results

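The drug and steroid metabolism enzymes described here are the cytochrome P450s (Cyp), UDP-glucuronosyltransferases (Ugt), glutathione S-transferases (Gst) and sulfotransferases (Sult) of the mouse. They were taken by symbol from the GENCODE M21 annotation, protein-coding genes only: Cyp or Sult followed by a digit, Ugt1 to Ugt3, and Gst of the classes a, k, m, o, p and t. This gave 162 genes of the 54109 gene identifiers in the count table, of which 99 were Cyp, 21 Ugt, 21 Gst and 21 Sult. The study sequenced mRNA from LPMCs (cells prepared from the lamina propria, the layer of connective tissue and immune cells under the gut epithelium) and from the whole colon of mice with acute DSS colitis, a chemical injury of the colon epithelium by dextran sulfate sodium in the drinking water. There were 4 groups of 3 libraries: LPMCs of Gpr15l-/- (KO) mice, LPMCs of wild-type (WT) mice, full colon of KO mice and full colon of WT mice. Every mouse had received DSS, so no library shows uninjured tissue, and the labels give no strain, sex or age. Gpr15l encodes GPR15L, the ligand of the lymphocyte homing receptor GPR15. Each library was taken as 1 replicate. The labels do not tell if the 3 libraries of a group were separate animals, and the p-values then reflect library-to-library spread alone, which may be technical.

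These enzymes clear lipophilic compounds in steps. The P450s of the Cyp1 to Cyp4 families oxidise drugs, food compounds, fatty acids and steroids in the endoplasmic reticulum, while other P450s make or break down sterols, steroid hormones, bile acids and vitamin D in the endoplasmic reticulum or mitochondria. Ugt, Gst and Sult enzymes then attach glucuronic acid, glutathione or sulfate, which makes the product soluble for export. In the intestine the surface epithelium carries most of this activity, and its genes are under the control of receptors such as AhR and PXR.

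Library depth ran between 45372585 and 140682087 counts, and the 162 genes held between 0.184% and 0.443% of a library. The deleted gene, 2610528A11Rik in the annotation, had 4 to 20 counts in the 6 KO libraries, against 15639 to 80362 counts in the 6 WT libraries, so every library fitted its genotype label. The LPMC libraries carried much epithelial RNA. The summed level of 12 epithelial markers was 12634 to 18074 CPM (counts scaled to a common library size) in LPMCs, against 19801 to 37921 CPM in colon. The summed level of 10 T cell markers, 68.5 to 251 CPM in LPMCs against 6.53 to 52.7 CPM in colon, was higher in LPMCs, as the label has it, but stood far below the epithelial sum. The sum of 8 B and plasma cell markers was mostly higher in LPMCs (1050 to 3535 CPM, against 529 to 1144 CPM in colon). Taken singly, all 8 were higher in LPMC KO than in colon KO (median log2 difference 4.34), but in WT 4 were higher and 4 lower (median -0.07). Colon WT replicate 1 had a mean log2 CPM of 6.76 over these markers, above every LPMC WT library (5.59 to 6.58). Macrophage sums overlapped between tissues: 10 markers came to 273 to 826 CPM in LPMC KO and 308 to 514 CPM in LPMC WT, against 171 to 539 CPM in colon KO and 350 to 612 CPM in colon WT. The sum of 8 neutrophil markers was lower in LPMC WT (59.7 to 119 CPM) than in colon WT (541 to 775 CPM). In KO it overlapped (73.4 to 575 CPM in LPMCs, 260 to 452 CPM in colon). Taken singly, 7 of the 8 were higher and 1 lower in LPMC KO (median log2 difference 2.37, 1 called in each direction). In WT, 4 were higher and 4 lower (median 0.11, 1 called lower). LPMC libraries also held more crypt stem cell RNA (371 to 621 CPM for 8 markers, against 114 to 250 CPM in colon). Colon KO replicate 2 stood apart, with the highest sums for epithelial (37921 CPM), absorptive colonocyte (18810 CPM) and smooth muscle markers (2046 CPM) of all 12 libraries, and colon WT replicate 1 had the highest absorptive colonocyte sum of its group (10581 CPM). In bulk RNA, fewer cells of a type and less RNA per cell cannot be told apart.

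Of the 162 genes, 135 had at least 1 count and 27 had none in any library, namely 13 Cyp, 9 Sult and 5 Ugt genes. A further 29 had only 1 to 20 counts over all 12 libraries. Genes with a mean of at least 1 CPM numbered 60 in LPMC KO, 59 in LPMC WT, 56 in colon KO and 54 in colon WT libraries. All 21 Gst genes were detected and 18 reached 1 CPM in every group, whereas 29 of the 99 Cyp genes reached that mean over the 12 libraries. Of the Cyp3 family, whose members dominate drug oxidation in the liver, Cyp3a13 averaged 24.8 ± 4.37 CPM in LPMC KO, 30.9 ± 14.3 CPM in LPMC WT, 79.6 ± 58.5 CPM in colon KO and 47.9 ± 22.9 CPM in colon WT (SD, n = 3 each). The next Cyp3 gene, Cyp3a25, stayed under 1 CPM in all 12 libraries.

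**Figure D1:**
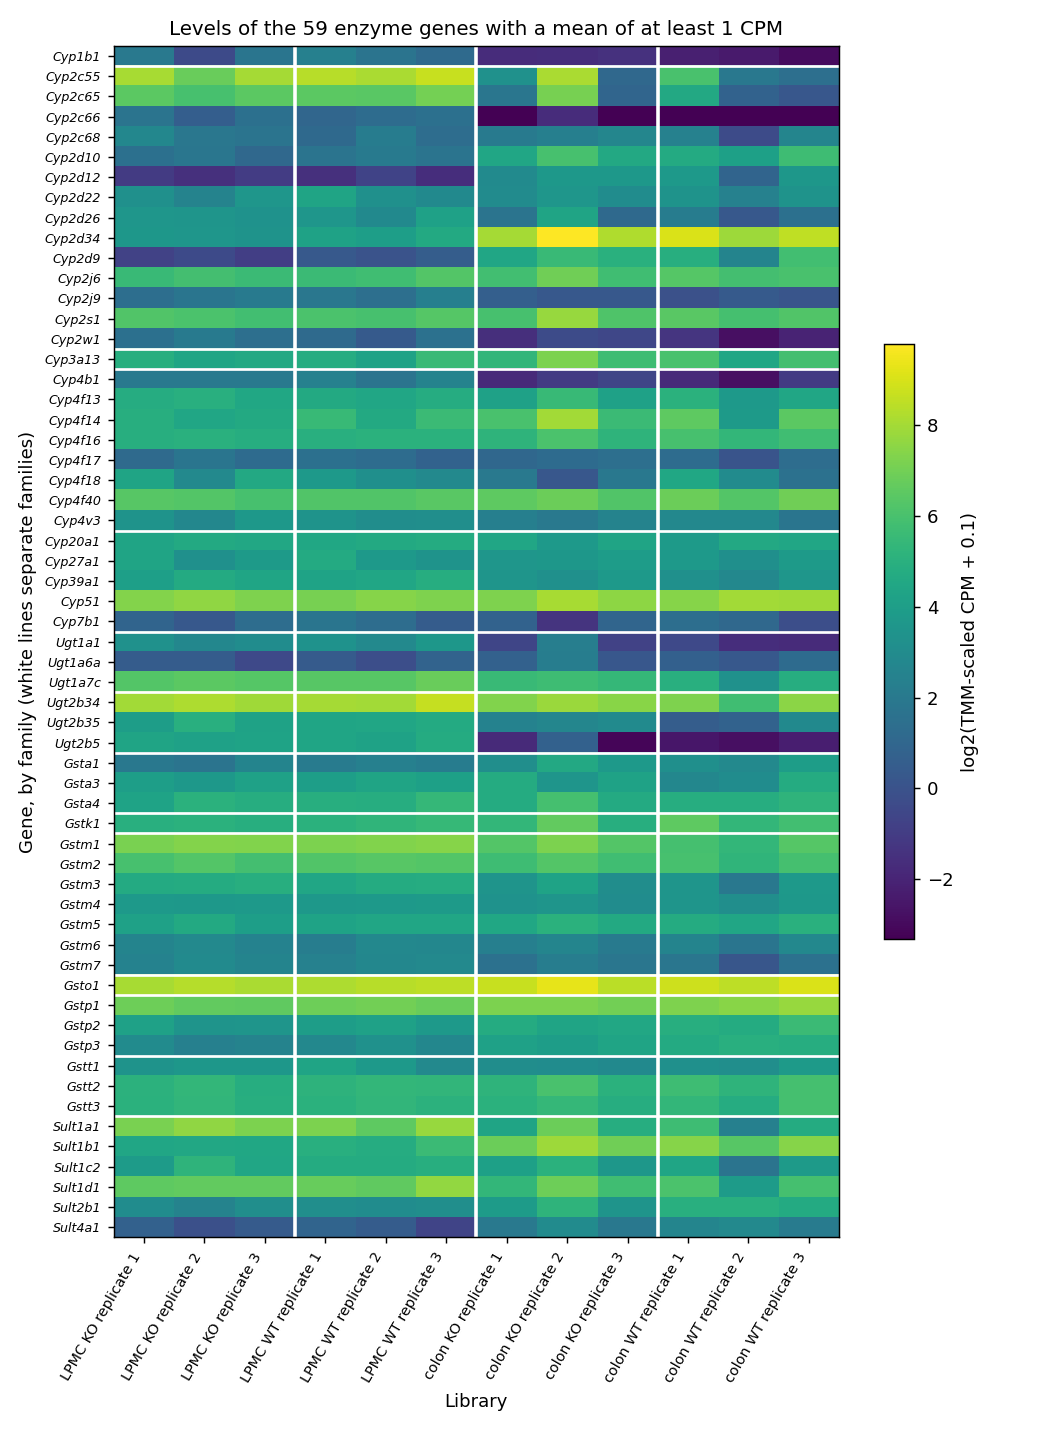
Heat map of log2(CPM + 0.1) for the 59 genes with a mean of at least 1 CPM over 12 libraries, 1 row per gene and 1 column per library, with white lines between families. The Cyp2d34 row is high in colon and low in LPMCs and the Ugt2b5 row the reverse, and in the Cyp2c55 row colon KO replicate 2 (274 CPM) stands apart from the other 2 colon KO libraries.

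Summed by superfamily, the Cyp genes came to 910 ± 93.7 CPM in LPMC KO, 1092 ± 152 CPM in LPMC WT, 1553 ± 1021 CPM in colon KO and 1218 ± 319 CPM in colon WT. The Gst genes summed to 864 ± 59.7, 958 ± 62.3, 1078 ± 302 and 1083 ± 222 CPM in the same order of groups. The Sult sums were 315 ± 42.3, 360 ± 131, 331 ± 188 and 265 ± 107 CPM. For these 3 sums the libraries of each group overlapped with those of every other group. The Ugt sum was 397 ± 39.0 CPM in LPMC KO and 453 ± 108 CPM in LPMC WT, against 244 ± 41.4 CPM in colon KO and 159 ± 81.5 CPM in colon WT, and all 6 LPMC libraries lay above all 6 colon libraries. The sum over all 162 genes was 4991 CPM in colon KO replicate 2 and between 1940 and 3340 CPM in the other 11 libraries.

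**Figure D2:**
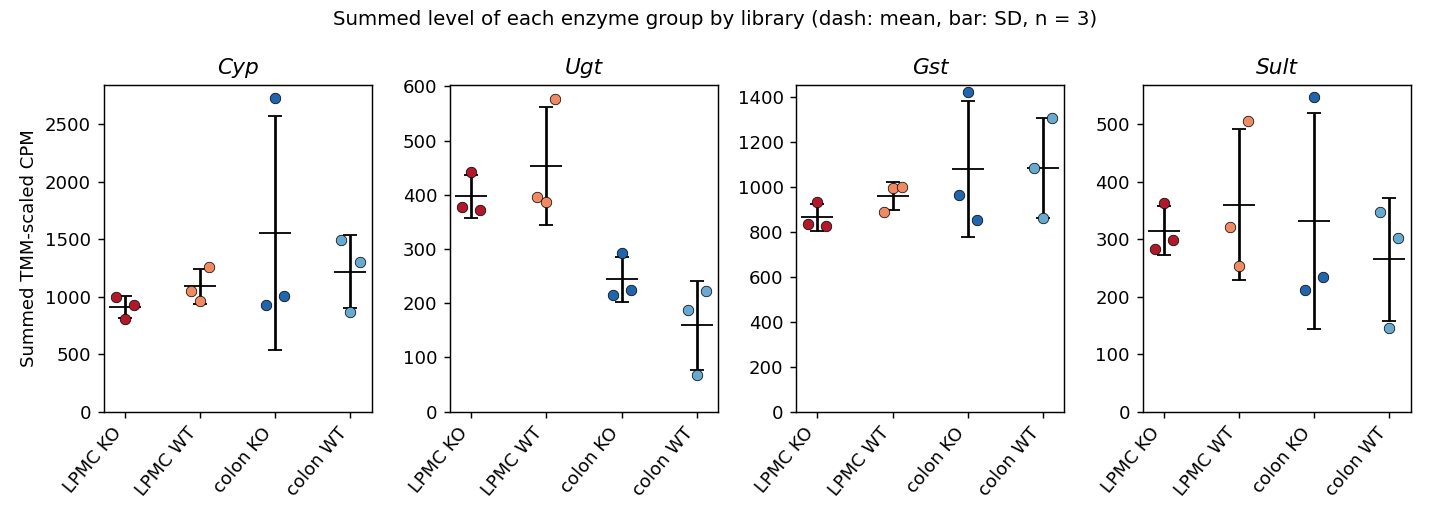
Summed TMM-scaled CPM of each superfamily in the 4 groups, with points for libraries, a dash for the mean and bars for the SD (n = 3). The Ugt sums of LPMC KO (397 ± 39.0) and LPMC WT (453 ± 108) lay above those of colon KO (244 ± 41.4) and colon WT (159 ± 81.5), and 1 colon KO library lay far above the rest in the Cyp panel.

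Levels between genes were compared per kb of exon. Among the Gst genes, Gsto1, an omega-class enzyme that reduces dehydroascorbate and arsenic compounds, was highest, at 143 ± 15.2 CPM per kb in LPMC KO, 161 ± 16.2 in LPMC WT, 227 ± 73.8 in colon KO and 220 ± 44.6 in colon WT. Gstp1 and Gstm1, the leading pi-class and mu-class enzymes, had group means of 67.8 to 117 and 41 to 107 CPM per kb. Among the Cyp genes the order depended on the tissue. Cyp2c55, an arachidonic acid oxidase of the intestine, led in LPMCs at 106 ± 43.8 (KO) and 169 ± 33.5 (WT) CPM per kb, and Cyp2d34 led in colon at 173 ± 126 (KO) and 135 ± 53.1 (WT) CPM per kb. Cyp51, the lanosterol demethylase of cholesterol synthesis, was more even, with group means between 34.7 and 49.7 CPM per kb. Among the Ugt genes Ugt2b34 was highest in every group, with means of 61 and 70.1 CPM per kb in LPMC KO and LPMC WT and of 43 and 30.2 CPM per kb in colon KO and colon WT. Among the Sult genes Sult1a1, which sulfates phenols, led in LPMCs (108 ± 19.8 CPM per kb in KO, 101 ± 41.2 in WT), and Sult1b1, which sulfates phenols and thyroid hormones, led in colon (56.3 ± 24.1 CPM per kb in KO, 50.5 ± 18 in WT).

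The tissue comparison was made within each genotype, on all 12 libraries and without pairing. Between LPMC KO and colon KO, 32 of the 87 genes with enough counts for a test passed an adjusted p of 0.05, 16 higher and 16 lower in LPMCs. Over all 20989 genes tested, 28.1% passed, with 14.5% higher and 13.6% lower. Between LPMC WT and colon WT, 37 of 87 passed, 20 higher and 17 lower, beside 35.4% of all genes (17.8% higher, 17.5% lower). With libraries scaled to epithelial markers the WT split was 26 higher and 10 lower, beside 4647 higher and 1370 lower of all genes, and the KO split was 16 higher and 11 lower, beside 2546 higher and 1341 lower. The median log2 difference of the 87 genes was -0.02 in KO and 0.17 in WT, against 0.00 for all genes in both, and its sign was not stable: it was -0.03 in WT without LPMC WT replicate 1, and 0.11 in KO with a replicate block and 0.13 without colon KO replicate 2. The number passing for KO was 19 without LPMC KO replicate 3, and the number higher was 7 without that library, 7 without colon KO replicate 1 and 9 without colon KO replicate 3. Genes called higher in both genotypes numbered 10, or 62.5% of the KO calls and 50% of the WT calls, and genes called lower in both numbered 12, or 75.0% of the KO calls and 70.6% of the WT calls. No gene was called in opposite directions. Of all genes tested, 11% were higher in both and 10.6% lower in both. Libraries of the 2 tissues did not overlap for 47 of the 87 genes in KO (25 higher, 22 lower), beside 47.4% of all genes (23.9% higher, 23.5% lower), and for 51 in WT (30 higher, 21 lower), beside 49.7% (25.7% higher, 24% lower).

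**Figure D3:**
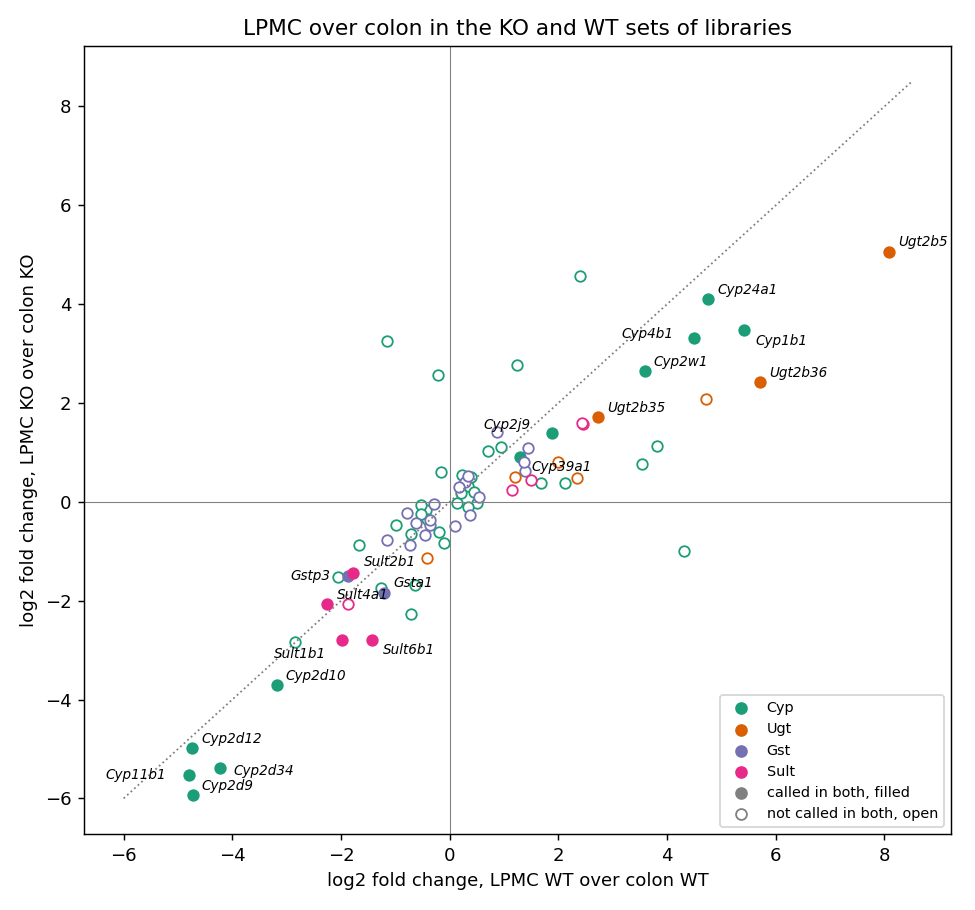
Log2 fold change of LPMC KO over colon KO (y axis) against that of LPMC WT over colon WT (x axis) for 82 genes, leaving out 5 with no counts in a group. Filled points, labelled, are the 20 genes drawn that were called in the same direction in both genotypes, and the dotted line marks equal values. Ugt2b5 lies at the upper right and the labelled Cyp2d genes at the lower left.

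The Ugt genes called between tissues were all higher in LPMCs. Of 8 tested Ugt genes, 3 were higher and none lower in LPMC KO than in colon KO (median log2 difference 1.26), beside 14.5% of all genes higher and 13.6% lower. Between LPMC WT and colon WT, 6 were higher and none lower (median 2.54), beside 17.8% of all genes higher and 17.5% lower. Ugt2b5, an enzyme that glucuronidates steroids, had 19.8, 18.1 and 19.1 CPM in LPMC KO libraries and 20.7, 18.7 and 27 CPM in LPMC WT libraries. It had 0.194, 1.57 and 0.0134 CPM in colon KO libraries and 0.0724, 0.0465 and 0.115 CPM in colon WT libraries. All 6 LPMC libraries were above all 6 colon libraries. The log2 difference was 5.06 ± 1.10 (SE, adjusted p = 0.00781) in KO and 8.08 ± 1.31 (adjusted p = 0.00144) in WT. Ugt2b36, of the same cluster, ran at a lower level, 1.57, 1.65 and 1.13 CPM in LPMC KO and 1.56, 1.19 and 2.42 CPM in LPMC WT, against 0.366, 0.457 and 0.0134 CPM in colon KO and 0.0241, 0.0465 and 0.0287 CPM in colon WT. Its log2 difference was 2.42 ± 0.79 in KO (adjusted p = 0.0418) and 5.71 ± 1.01 in WT (adjusted p = 0.00189), and the KO call was lost on leaving out any LPMC KO library or colon KO replicate 1, with adjusted p between 0.0716 and 0.088.

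Ugt2b5 and Ugt2b36 lie on the minus strand of chromosome 5, and the 250 bases before their RefSeq starts (GRCm38.p6) are shown, 5′ to 3′, because both genes were higher in LPMCs in both genotypes. Capitals mark the longest run of bases that the 2 windows share, 24 bases near the start. The windows are chr5:87140341-87140590 for Ugt2b5 and chr5:87092556-87092805 for Ugt2b36.
Ugt2b5: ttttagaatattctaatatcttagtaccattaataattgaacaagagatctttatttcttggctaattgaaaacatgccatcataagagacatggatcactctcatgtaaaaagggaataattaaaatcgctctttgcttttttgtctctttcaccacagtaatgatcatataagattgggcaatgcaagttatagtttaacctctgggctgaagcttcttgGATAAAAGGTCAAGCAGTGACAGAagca
Ugt2b36: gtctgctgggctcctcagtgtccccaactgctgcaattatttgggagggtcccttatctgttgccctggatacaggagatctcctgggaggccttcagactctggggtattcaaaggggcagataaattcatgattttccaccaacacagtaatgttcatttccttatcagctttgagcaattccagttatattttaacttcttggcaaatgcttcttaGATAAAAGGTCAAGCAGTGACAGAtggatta
Outside that run the windows differ in many places. Of the 50-base windows of Ugt2b5 transcripts, 41.7% occur also in other genes, chiefly Ugt2b38 and Ugt2b37, while 0.285% of those of Ugt2b36 do. Some Ugt2b5 reads may thus not be assignable by sequence alone, but Ugt2b38 and Ugt2b37 had no count in any library.

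Ugt2b35 averaged 21.6 ± 7.94 CPM in LPMC KO and 22.7 ± 2.74 CPM in LPMC WT, against 6.59 ± 1.08 CPM in colon KO and 3.41 ± 3.31 CPM in colon WT, with log2 differences of 1.71 ± 0.54 in KO (adjusted p = 0.036) and 2.73 ± 0.56 in WT (adjusted p = 0.00424). The KO call was lost on leaving out LPMC KO replicate 2 or 3 or any colon KO library. Ugt2b34, the most abundant Ugt gene, averaged 263 ± 26.6, 302 ± 82.0, 185 ± 32.1 and 130 ± 67.5 CPM in LPMC KO, LPMC WT, colon KO and colon WT. Its log2 difference missed in KO (0.51 ± 0.36, adjusted p = 0.312) and passed in WT (1.21 ± 0.36, adjusted p = 0.0234), and leaving out LPMC WT replicate 3 ended the WT call. Ugt1a1, the bilirubin-conjugating enzyme, had 9.9, 6.59 and 8.14 CPM in LPMC KO and 10.3, 6.98 and 12 CPM in LPMC WT libraries, against 0.571, 4.78 and 0.509 CPM in colon KO and 0.652, 0.232 and 0.201 CPM in colon WT libraries. The log2 difference was 2.08 in KO (adjusted p = 0.0685) and 4.72 ± 0.89 in WT (adjusted p = 0.00272), and in KO it was 2.95 (adjusted p = 0.0369) with a replicate block and 3.91 (adjusted p = 0.00107) without colon KO replicate 2. Ugt1a7c, a phenol-conjugating enzyme of the same locus, averaged 82.2 ± 7.03 and 92.7 ± 16.1 CPM in LPMC KO and LPMC WT, against 47.0 ± 5.2 and 23.2 ± 11.7 CPM in colon KO and colon WT. Its WT difference of 2.00 ± 0.34 passed (adjusted p = 0.00162). Its KO difference missed in the main fit and passed on the 6 KO libraries (0.81 ± 0.14, adjusted p = 0.011). Ugt1a genes are spliced from separate first exons to common last exons, and between 52.1% and 79.8% of their 50-base windows are shared, so the split of counts among them is uncertain. Ugt1a6a had negative values that missed the threshold, at -1.14 ± 0.56 in KO (adjusted p = 0.15) and -0.41 ± 0.56 in WT (adjusted p = 0.592), and its WT value was 0.00 when libraries were scaled to epithelial markers.

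The Cyp2 genes with the lowest p-values for a lower level in LPMCs were of the Cyp2d subfamily. All 4 Cyp2d genes called in either genotype, Cyp2d9, Cyp2d10, Cyp2d12 and Cyp2d34, were lower in LPMCs in both genotypes. Cyp2d34 had 12, 11.8 and 10.7 CPM in LPMC KO libraries and 18.7, 16.3 and 25.1 CPM in LPMC WT libraries, against 260, 882 and 297 CPM in colon KO libraries and 525, 230 and 365 CPM in colon WT libraries. The colon libraries were all above the LPMC libraries, with a log2 difference of -5.38 ± 0.52 in KO (adjusted p = 8.99e-05) and -4.22 ± 0.49 in WT (adjusted p = 0.000232). Cyp2d9, a testosterone hydroxylase in mouse liver, had 0.502, 0.68 and 0.447 CPM in LPMC KO and 1.15, 0.938 and 1.37 CPM in LPMC WT, against 21.2, 46.6 and 31.8 CPM in colon KO and 29.9, 5.85 and 55.5 CPM in colon WT. Its log2 difference was -5.93 ± 0.73 in KO (adjusted p = 0.000362) and -4.73 ± 0.69 in WT (adjusted p = 0.000752). Cyp2d10 and Cyp2d12 differed by -3.71 and -4.99 in KO and by -3.18 and -4.74 in WT.

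For the cluster neighbours Cyp2d22 and Cyp2d26 no tissue difference passed the threshold. Cyp2d22 averaged 8.97 ± 2.95 CPM in LPMC KO and 12.4 ± 6.7 CPM in LPMC WT, against 9.18 ± 2.1 CPM in colon KO and 8.7 ± 2.93 CPM in colon WT, and its WT log2 difference was 0.51 ± 0.41 (adjusted p = 0.359). Cyp2d26 had 11.6, 11.3 and 10 CPM in LPMC KO and 11.7, 7.25 and 17.8 CPM in LPMC WT, against 3.17, 19.8 and 2.16 CPM in colon KO and 4.44, 1.11 and 2.79 CPM in colon WT. Its log2 difference missed the threshold in KO (0.39, adjusted p = 0.726), where colon KO replicate 2 exceeded every LPMC library, and in WT (2.13, adjusted p = 0.0538).

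The 250 bases before the RefSeq starts of Cyp2d9 (chr15:82452127-82452376, plus strand) and Cyp2d10 (chr15:82407195-82407444, minus strand) are shown from GRCm38.p6, 5′ to 3′, since these paralogs moved together. Capitals mark their longest shared run, 51 bases.
Cyp2d9: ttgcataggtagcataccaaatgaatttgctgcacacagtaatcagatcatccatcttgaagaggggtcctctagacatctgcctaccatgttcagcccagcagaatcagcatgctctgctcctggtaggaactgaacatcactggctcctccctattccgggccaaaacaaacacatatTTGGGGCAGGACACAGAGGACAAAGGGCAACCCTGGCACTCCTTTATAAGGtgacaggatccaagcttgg
Cyp2d10: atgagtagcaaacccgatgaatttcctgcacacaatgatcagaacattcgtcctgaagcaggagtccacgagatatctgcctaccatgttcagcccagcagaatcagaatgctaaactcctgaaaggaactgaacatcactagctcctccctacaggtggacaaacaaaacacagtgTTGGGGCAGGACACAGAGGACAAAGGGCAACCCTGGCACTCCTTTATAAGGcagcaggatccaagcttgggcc
Of their transcripts' 50-base windows, 21.8% (Cyp2d9) and 35.8% (Cyp2d10) recur in paralogs, against 7.55% for Cyp2d34, so the counts of Cyp2d34 are the least open to misassignment of the 3.

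The Cyp2c genes did not all differ in 1 direction. Those of the intestine, Cyp2c55, Cyp2c65 and Cyp2c66, lie together on chromosome 19 and oxidise arachidonic acid. Cyp2c55 had 265, 110 and 256 CPM in LPMC KO libraries and 327, 275 and 408 CPM in LPMC WT libraries. In colon KO libraries it had 9.93, 274 and 2.07 CPM, and in colon WT libraries 65.2, 3.72 and 2.62 CPM. Colon KO replicate 2 and colon WT replicate 1 were far above the other 2 libraries of their groups. The sum of 12 absorptive colonocyte markers, none of them at 0 in any group, was highest in the same libraries, at 7111, 18810 and 5049 CPM in colon KO and 10581, 4554 and 6698 CPM in colon WT, against 4537 to 8251 CPM in LPMCs, and its part in these levels was not tested. The log2 differences of 1.14 ± 1.49 in KO (adjusted p = 0.6) and 3.81 ± 1.65 in WT (adjusted p = 0.0955, or 0.0273 with DESeq2) missed the threshold with edgeR, although LPMC WT and colon WT libraries did not overlap. Cyp2c65 had the same order of libraries within each group, at 90.9, 61.8 and 88.4 CPM in LPMC KO and 88, 85.2 and 134 CPM in LPMC WT, against 3.38, 136 and 1.86 CPM in colon KO and 23.7, 1.63 and 1.06 CPM in colon WT. Cyp2c66 was called higher in LPMCs in both genotypes, with 3.19, 1.43 and 2.75 CPM in LPMC KO and 1.94, 2.36 and 2.73 CPM in LPMC WT, against 0, 0.212 and 0 CPM in colon KO and 0 CPM in all 3 colon WT libraries. In KO the log2 difference was 5.38 ± 1.27 (adjusted p = 0.0143, or 0.0596 with a replicate block), and in WT it was at least 153-fold higher, taking 3 counts over the colon WT group as the limit a count of 0 allows. Cyp2c23, an arachidonic acid epoxygenase of the kidney, was lower in LPMCs at a very low level, with 0.131, 0.0486 and 0.0789 CPM in LPMC KO and 0.248, 0.131 and 0.0781 CPM in LPMC WT, against 0.441, 0.163 and 0.288 CPM in colon KO and 0.314, 0.372 and 0.444 CPM in colon WT. Its difference passed in KO (-1.75 ± 0.58, adjusted p = 0.0434) and missed in WT (-1.26 ± 0.57, adjusted p = 0.105). The KO call was lost with a replicate block (adjusted p = 0.0617), with scaling to epithelial markers (adjusted p = 0.15), with no filter, on the 6 KO libraries and on leaving out any KO library but colon KO replicate 2.

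Cyp1b1, an oestradiol hydroxylase that AhR induces, was the only Cyp1 gene with enough counts. It had 3.88, 0.68 and 3.37 CPM in LPMC KO and 5.15, 3.23 and 2.19 CPM in LPMC WT, against 0.215, 0.228 and 0.268 CPM in colon KO and 0.121, 0.0929 and 0.0287 CPM in colon WT. The log2 difference was 3.47 ± 0.66 in KO (adjusted p = 0.00343) and 5.42 ± 0.75 in WT (adjusted p = 0.000539). Fibroblast markers moved with it, since 8 such markers summed to 852 to 5158 CPM in LPMC libraries and 221 to 1022 CPM in colon libraries, and their part in the result was not tested. Cyp1a1, with too few counts for a test, had 0.0145, 0.0243 and 0 CPM in LPMC KO and 0.21, 0.464 and 0 CPM in LPMC WT. In colon it had 0.108, 0 and 0.0669 CPM in KO and 0, 0 and 0.0573 CPM in WT. Cyp4b1, a fatty acid hydroxylase, averaged 3.89 ± 0.0101 CPM in LPMC KO and 4.76 ± 1.32 CPM in LPMC WT, against 0.385 ± 0.188 CPM in colon KO and 0.204 ± 0.163 CPM in colon WT, and was higher by 3.32 in KO (adjusted p = 0.00218) and 4.49 in WT (adjusted p = 0.00053). Cyp2w1, known from fetal gut and colon tumours, averaged 3.17 ± 0.798 and 2.08 ± 0.83 CPM in LPMC KO and LPMC WT, against 0.507 ± 0.241 and 0.164 ± 0.129 CPM in colon KO and colon WT, and was higher by 2.64 in KO (adjusted p = 0.00771) and 3.59 in WT (adjusted p = 0.00184). Cyp39a1, an oxysterol hydroxylase of bile acid synthesis, was higher by 0.91 in KO (adjusted p = 0.0202) and 1.30 in WT (adjusted p = 0.00303), and the KO call was lost on leaving out LPMC KO replicate 2 or 3 or colon KO replicate 1 or 2. Cyp24a1, which inactivates vitamin D, was called higher in both genotypes on low counts, under 1 CPM in every library, and its KO call was lost with a replicate block (adjusted p = 0.0535) and on leaving out any KO library but LPMC KO replicate 1. Its WT call was lost without LPMC WT replicate 3, colon WT replicate 1 or colon WT replicate 3.

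Among the steroid hormone enzymes, the adrenal-type P450s Cyp11b1 and Cyp11b2, which make corticosterone and aldosterone, were lower in LPMCs in both genotypes at very low levels. Cyp11b1 had 0, 0.0243 and 0 CPM in LPMC KO and 0.0191, 0 and 0 CPM in LPMC WT, against 0.668, 0.261 and 0.248 CPM in colon KO and 0.338, 0.186 and 0.215 CPM in colon WT. Cyp11b2 had no count in any LPMC library and was at least 12.9-fold lower in KO and 17.8-fold lower in WT, and the KO call was lost with a replicate block (adjusted p = 0.0586). Of 6 listed markers of adrenal and gonad, Mc2r, Nr5a1 and Hsd3b1 were each below 0.1 CPM in all 12 libraries. The whole list summed to 65.7 to 80.8 CPM in LPMCs and 56.0 to 87.7 CPM in colon, nearly all of it from Scarb1 and Fdx1, which many tissues express, with Star at 1.19 to 3.21 CPM. Cyp11a1, which starts steroid synthesis from cholesterol, went the other way, at 0.742, 0.984 and 1.51 CPM in LPMC KO and 0.534, 0.645 and 0.371 CPM in LPMC WT, against 0.0538, 0.0979 and 0 CPM in colon KO and 0.0483, 0.209 and 0.0573 CPM in colon WT. All 6 LPMC libraries exceeded all 6 colon libraries, and the difference passed in KO (4.57 ± 0.94, adjusted p = 0.00528) and missed in WT (2.40 ± 0.87, adjusted p = 0.0513, or 0.00965 with DESeq2 and 0.0266 with libraries scaled to epithelial markers).

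In the WT tissue comparison, 3 of 7 Gstm genes were higher and none lower, all 3 Gstp genes were lower, and of 4 Gsta genes 1 was lower, beside 17.8% of all genes higher and 17.5% lower. The Gstm count fell to 1, Gstm1, without LPMC WT replicate 2. Gstm1 had 143, 163 and 156 CPM in LPMC KO and 146, 159 and 170 CPM in LPMC WT, against 77.9, 146 and 76.7 CPM in colon KO and 61.5, 40.9 and 78.9 CPM in colon WT. Its WT log2 difference was 1.39 ± 0.27 (adjusted p = 0.00343), and Gstm3 differed by 1.45 ± 0.41 (adjusted p = 0.0192, or 0.0511 without LPMC WT replicate 2). Gstm7 differed by 1.36 ± 0.39 (adjusted p = 0.021), and its call was lost on the 6 WT libraries (adjusted p = 0.0654) and without LPMC WT replicate 2 (0.0567) or replicate 3 (0.0555). In KO none of the 3 passed with edgeR on all 12 libraries, at 0.62 ± 0.27 for Gstm1 (adjusted p = 0.109), 1.09 ± 0.41 for Gstm3 (adjusted p = 0.0664) and 0.80 ± 0.39 for Gstm7 (adjusted p = 0.143). Without colon KO replicate 2, Gstm1 (adjusted p = 0.0136) and Gstm3 (adjusted p = 0.0342) passed. Both also passed when libraries were scaled to epithelial markers (adjusted p = 0.0187 and 0.0248), and Gstm3 passed with DESeq2 (adjusted p = 0.0402) and on the 6 KO libraries (adjusted p = 0.0429). Gstp3 had 8.02, 5.1 and 5.62 CPM in LPMC KO and 6.87, 9.98 and 6.58 CPM in LPMC WT, against 17.7, 15.5 and 20.4 CPM in colon KO and 25.9, 30.7 and 28.9 CPM in colon WT. The 6 LPMC libraries were all below the 6 colon libraries, with log2 differences of -1.51 ± 0.23 in KO (adjusted p = 0.00116) and -1.87 ± 0.24 in WT (adjusted p = 0.000325). Gstp1 and Gstp2 were lower in WT by 0.62 and 1.16 on the log2 scale (adjusted p = 0.0102 and 0.00751), and both calls were lost when libraries were scaled to epithelial markers (adjusted p = 0.62 and 0.175). In KO both missed in the main fit and passed with DESeq2, at -0.45 for Gstp1 (adjusted p = 0.0261) and -0.80 for Gstp2 (adjusted p = 0.0196). Gsta1, an alpha-class enzyme, was called lower in both genotypes, but 90.5% of its windows are shared with close copies. Its WT call was lost with a replicate block (-1.13, adjusted p = 0.0662), with libraries scaled to epithelial markers (-0.79, adjusted p = 0.18) and on leaving out any WT library but colon WT replicate 2.

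The 3 Gstp genes lie side by side on the minus strand of chromosome 19, and how far they differ decides how well their counts can be told apart. The first 60 coding bases of each are shown from GENCODE M21 transcripts, 5′ to 3′, with capitals at each position where the 3 genes are not identical.
Gstp1: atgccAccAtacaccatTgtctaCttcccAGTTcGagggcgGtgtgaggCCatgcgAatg
Gstp2: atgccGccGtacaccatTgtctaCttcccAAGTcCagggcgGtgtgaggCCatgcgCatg
Gstp3: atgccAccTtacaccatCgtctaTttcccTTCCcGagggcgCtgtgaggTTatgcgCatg
Over the whole coding sequence of 633 bases, Gstp2 differed from Gstp1 at 12 positions (98.1% identity) and Gstp3 at 180 (71.6%). None of the 50-base windows of Gstp3 recur in another gene, against 33.7% for Gstp1 and 54.3% for Gstp2, so Gstp3 is measured apart from the other 2, whose division is uncertain.

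Among the 9 sulfotransferases tested, 4 were lower in LPMCs in both genotypes, beside 10.6% of all genes tested. Sult1b1 had 21.6, 23.5 and 22.6 CPM in LPMC KO and 30.6, 27.3 and 49.1 CPM in LPMC WT, against 114, 234 and 122 CPM in colon KO and 169, 82.7 and 170 CPM in colon WT. No LPMC library reached the lowest colon library, and the log2 difference was -2.80 in KO (adjusted p = 0.000435) and -1.98 in WT (adjusted p = 0.00191). Sult2b1, which sulfates cholesterol, averaged 7.6 ± 1.7 and 8.61 ± 0.475 CPM in LPMC KO and LPMC WT, against 20.7 ± 14.2 and 29.3 ± 3.11 CPM in colon KO and colon WT. It was lower by 1.44 ± 0.38 in KO (adjusted p = 0.018, or 0.0684 with a replicate block and 0.0642 without LPMC KO replicate 2) and by 1.77 ± 0.39 in WT (adjusted p = 0.00578). The KO call was also lost with libraries scaled to epithelial markers (adjusted p = 0.0659) and on the 6 KO libraries (adjusted p = 0.069). Sult4a1 and Sult6b1 were lower at levels of a few CPM or less, and the WT call of Sult6b1 was lost with a replicate block (-1.45, adjusted p = 0.0572) and without LPMC WT replicate 1, LPMC WT replicate 3 or colon WT replicate 1. Sult1a1 ran the opposite way, with 144, 196 and 146 CPM in LPMC KO and 147, 92.2 and 216 CPM in LPMC WT, against 20.2, 114 and 29.1 CPM in colon KO and 51.5, 5.16 and 26.3 CPM in colon WT. Its WT difference of 2.45 ± 0.80 passed (adjusted p = 0.0359) but the call ended on leaving out LPMC WT replicate 1, LPMC WT replicate 3, colon WT replicate 2 or colon WT replicate 3, with adjusted p between 0.069 and 0.0969. It ended also on the 6 WT libraries (adjusted p = 0.0534) and with no filter (adjusted p = 0.0993). In KO the difference missed in the main fit, and passed with a replicate block (1.99, adjusted p = 0.047) and without colon KO replicate 2 (2.69, adjusted p = 0.0419).

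**Figure D4:**
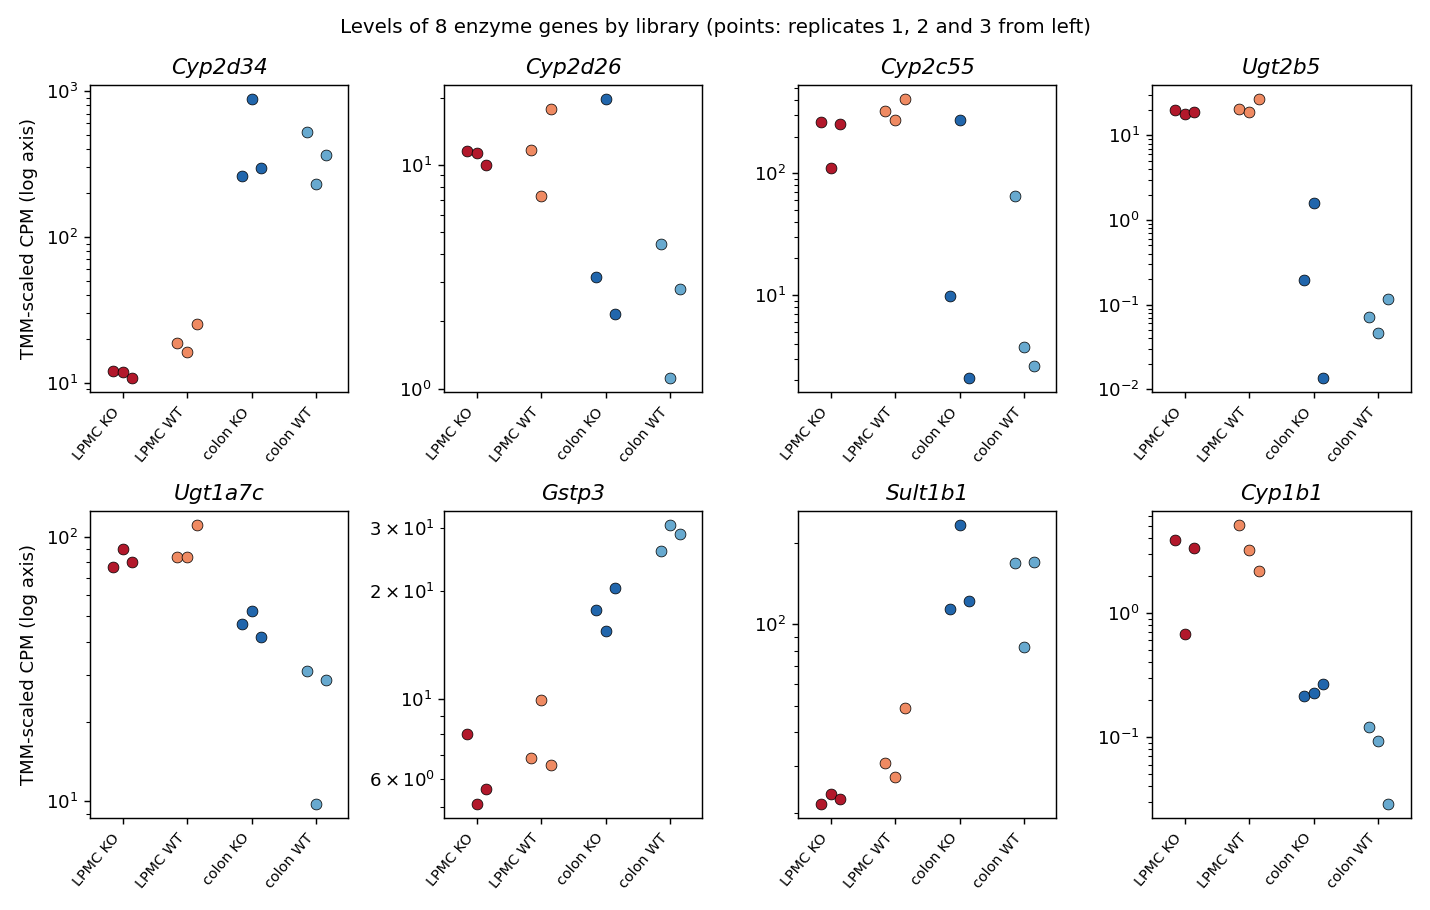
CPM on a log axis of Cyp2d34, Cyp2d26, Cyp2c55, Ugt2b5, Ugt1a7c, Gstp3, Sult1b1 and Cyp1b1 in the 12 libraries, grouped as LPMC KO, LPMC WT, colon KO and colon WT. Cyp2d34, Gstp3 and Sult1b1 lie higher in colon, Ugt2b5 and Cyp1b1 lie higher in LPMCs, and the colon libraries of Cyp2c55 spread between 2.07 and 274 CPM.

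The genotype comparison addressed the study's main question, what the loss of Gpr15l does in DSS colitis. None of the 162 enzymes passed the threshold in either tissue. In colon, 74 genes had enough counts and 0 were called, beside 0.00518% of the 19303 genes tested, which is 1 gene, the deleted one. At an unadjusted p under 0.05 there were 5 of the 74 (Gstp3, Cyp1b1, Cyp4f18, Ugt1a7c and Ugt1a1), beside 7.79% of all genes, and DESeq2 also called 0. The 5 became 3 without colon KO replicate 2 and 9 without colon WT replicate 1, and 13 of 87 in the fit on all 12 libraries. The log2 fold change of KO over WT was positive for 46 and negative for 28, with a median of 0.19, against 0.01 for all genes. With libraries scaled to epithelial markers it was positive for 61 and negative for 13, with a median of 0.44, against 0.36 for all genes. By superfamily the medians were 0.18 for Cyp, 0.94 for Ugt, -0.10 for Gst and 0.27 for Sult. Without colon KO replicate 2, 27 were positive and 49 negative and the median was -0.15, so the direction of the enzymes as a group rested on that library. Of 12 absorptive colonocyte markers, 10 were positive and 2 negative (median 0.65). Of 12 epithelial markers, 3 were positive and 9 negative (median -0.17). None of these markers was called, and their part in the enzyme values was not tested.

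The 5 Ugt genes tested in colon were all positive, but 3 were Ugt1a genes, which have common last exons. Ugt1a6a had 1.56, 4.63 and 1.08 CPM in colon KO and 1.5, 1.14 and 2.28 CPM in colon WT, so its higher KO level lay in colon KO replicate 2. Ugt1a7c had 46.8, 52.2 and 41.8 CPM in colon KO and 31.2, 9.76 and 28.7 CPM in colon WT, without overlap, and differed by 1.00 ± 0.41 (adjusted p = 0.632). Ugt1a1, with the values given above, differed by 2.39 ± 1.02 (adjusted p = 0.632), and its groups overlapped. All 3 Gstp genes were lower in every colon KO library than in any colon WT library. Gstp1 had 148, 148 and 128 CPM in colon KO and 153, 175 and 217 CPM in colon WT, and Gstp2 had 26.6, 19.7 and 23.1 CPM in colon KO and 29.7, 26.9 and 48.8 CPM in colon WT. The log2 differences were -0.37 ± 0.18 for Gstp1 (adjusted p = 0.639), -0.61 ± 0.26 for Gstp2 (adjusted p = 0.632) and -0.69 ± 0.19 for Gstp3 (adjusted p = 0.632). Groups without overlap were seen for 7 of the 74 genes, 3 higher and 4 lower, beside 14.3% of all genes (7.79% higher, 6.53% lower). Cyp1b1 was higher in all 3 colon KO libraries, by 1.52 ± 0.62 (adjusted p = 0.632). Colon KO replicate 1 also held hepatocyte RNA (Alb 11, Hpx 16.7 and Fgb 9.23 CPM), and in that library the liver P450s Cyp3a11, Cyp2c70, Cyp2c29 and Cyp2a12 read 0.517, 0.366, 0.258 and 0.258 CPM. The mean log2 CPM over 9 hepatocyte markers was 2.68 in that library, against -2.15 to -1.05 in the other 5 colon libraries. The sum of these markers, 199 CPM, was near the 190 CPM of colon WT replicate 1. Among other P450s, Cyp2e1 read 1.16 CPM in colon KO replicate 1 and 2.4 CPM in colon KO replicate 3, and Cyp1a2 read 0 CPM in colon KO replicate 1. Cyp3a11 had no count in the other 5 colon libraries.

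In LPMCs, 0 of 79 genes were called, beside 0.0103% of 19426 genes tested (0.00515% in each direction), and DESeq2 also called 0 of them. At an unadjusted p under 0.05 there were 6, beside 2.64% of all genes, but 2 of 81 without LPMC KO replicate 3 and 1 of 87 in the fit on all 12 libraries. Their fold changes were positive for 24 and negative for 55, with a median of -0.17, against 0.00 for all genes. The medians were -0.11 for Cyp, -0.19 for Ugt, -0.18 for Gst and -0.34 for Sult, and with libraries scaled to epithelial markers 38 of the 79 were positive and 41 negative with a median of -0.01, against 0.14 for all genes. Of 12 absorptive colonocyte markers, 1 was positive and 11 negative (median -0.63), and of 12 epithelial markers 1 was positive and 11 negative (median -0.14). None of these markers was called, and their part in the enzyme values was not tested. Cyp2d34 was lower in every LPMC KO library than in any LPMC WT library (values above), by 0.81 ± 0.18 on the log2 scale, with an unadjusted p of 0.00352 and an adjusted p of 0.998. Cyp2d9, lower by 1.09 ± 0.31, and Sult1b1, lower by 0.66 ± 0.23, also had groups without overlap. Cyp2c55 was lower by 0.68 ± 0.36 without overlap. The largest positive difference was that of Cyp11a1, 1.05 ± 0.40, again without overlap. All of these had an adjusted p of 0.998. Of the 79 genes 1 was higher and 7 lower without overlap, beside 3.66% and 3.75% of all genes (7.41% in either direction).

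**Figure D5:**
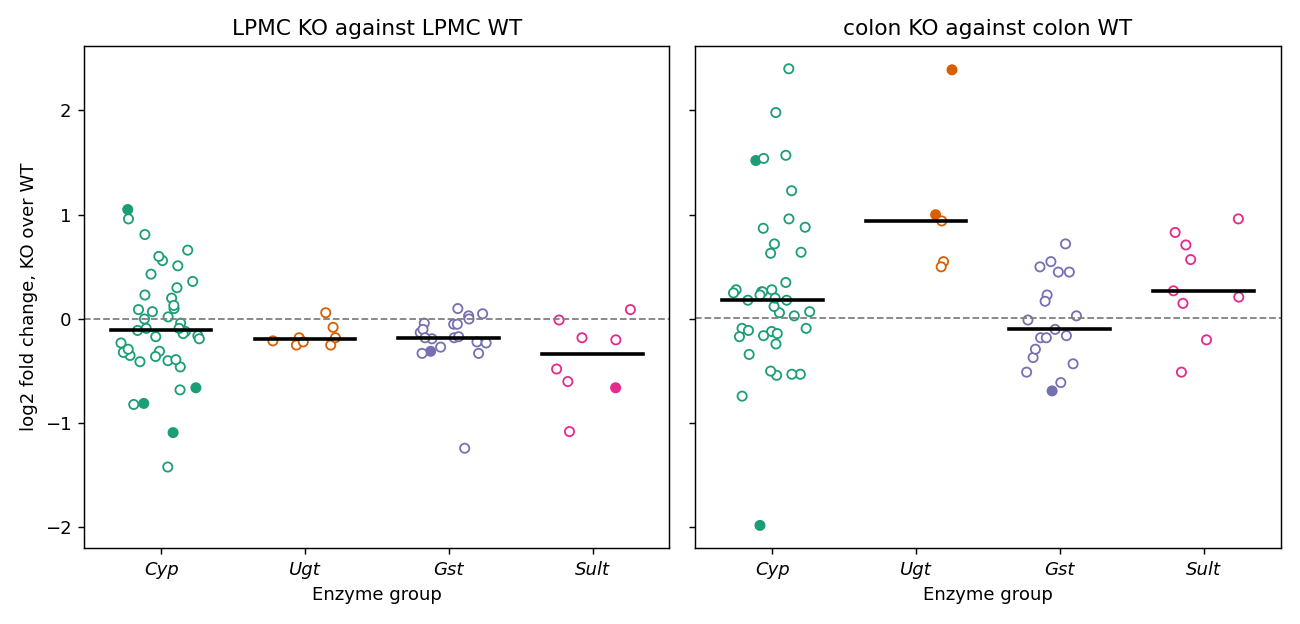
Log2 fold change of KO over WT for each tested gene by superfamily, LPMC left and colon right. Filled points have an unadjusted p under 0.05, black lines mark the median of each superfamily and the dashed line that of all genes. Ugt medians lay at -0.19 in LPMCs and 0.94 in colon.

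Whether the genotype difference itself differed between tissues was tested as the KO effect in LPMCs minus that in colon. Of 87 genes 0 were called, beside 0% of 20989, and 7 were under an unadjusted p of 0.05, beside 4.69% of all genes, with 11 without colon KO replicate 1 and 13 without colon KO replicate 3. DESeq2 called 3 of all genes and none of the 87. The difference was negative for 56 and positive for 31, with a median of -0.42, against -0.01 for all genes. All 8 Ugt genes were negative, with a median of -1.53, and Ugt1a7c stood at -1.19 ± 0.47 and Ugt1a1 at -2.64 ± 1.10. All 12 absorptive colonocyte markers were negative too (median -1.27). Of 12 epithelial markers, 5 were positive and 7 negative (median -0.04). The part of these markers in the enzyme values was not tested. Cyp4f18, a leukotriene hydroxylase of neutrophils, stood at 2.77 ± 1.01. It had 19.9, 7.16 and 23.9 CPM in LPMC KO and 13, 9.03 and 7.01 CPM in LPMC WT, against 3.8, 1.09 and 3.72 CPM in colon KO and 22.7, 7.97 and 2.84 CPM in colon WT. The sum of 8 neutrophil markers was 73.4 to 575 CPM in LPMC KO and 59.7 to 119 CPM in LPMC WT, against 260 to 452 CPM in colon KO and 541 to 775 CPM in colon WT. The difference of differences was positive for all 8 markers (median 2.24). It was also positive for all 10 T cell markers (median 1.6), all 10 macrophage markers (median 1.1) and 6 of 8 B and plasma cell markers (median 3.88). All 8 smooth muscle markers, 7 of 8 fibroblast markers and 7 of 8 endothelial markers were negative. In colon WT, replicate 1 had the highest Cyp4f18 level, the lowest neutrophil sum (541 CPM) and the highest T cell sum (52.7 CPM). None of these markers was called, and their part in the Cyp4f18 result was not tested. Ugt1a7c, Ugt1a1 and Cyp4f18 each had an adjusted p of 0.902. Without colon KO replicate 2, 46 enzymes were negative and 47 positive and their median was 0.05.

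The wider pathway was described with 7 lists, and none of their genes was called between genotypes in either tissue or in the difference between tissues. Between tissues, 28.1% of all genes passed in KO (14.5% higher, 13.6% lower) and 35.4% in WT (17.8% higher, 17.5% lower), and several of these lists had shares near those. Of 17 tested receptors and regulators, 6 were higher and 2 lower in LPMCs in KO, and 9 were higher and 2 lower in WT. The fatty acid receptor Ppara was higher by 2.89 ± 0.39 in KO (adjusted p = 0.000539) and 3.67 ± 0.40 in WT (adjusted p = 0.000153). The xenobiotic receptor Ahr was higher by 1.27 ± 0.20 in KO (adjusted p = 0.00133) and 1.65 ± 0.20 in WT (adjusted p = 0.000293), and its target Tiparp by 1.71 ± 0.19 in KO (adjusted p = 0.000198) and 1.47 ± 0.19 in WT (adjusted p = 0.000386). Of 33 other oxidising, hydrolysing and conjugating enzymes, 3 were higher and 7 lower in KO, and 7 were higher and 5 lower in WT. The carboxylesterase Ces1f was higher by 2.58 ± 0.57 in KO and 3.91 ± 0.61 in WT, while the arylamine acetyltransferase Nat2 was lower, at -2.15 ± 0.30 in KO and -1.67 ± 0.30 in WT. Ces1d and Ces1g were higher in WT by 4.34 ± 0.59 and 3.21 ± 0.44.

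Among 9 efflux transporters, 1 was higher and 3 lower in KO, and 2 were higher and 2 lower in WT. The 2 subunits of the bile acid and steroid exporter moved in opposite directions in both genotypes, with Slc51a at 5.29 ± 1.04 in KO (adjusted p = 0.00465) and 6.43 ± 1.10 in WT (adjusted p = 0.00189), and Slc51b at -2.55 ± 0.37 in KO (adjusted p = 0.000864) and -2.33 ± 0.37 in WT (adjusted p = 0.00112). Of 9 genes that Nrf2 controls, 1 was higher and 2 lower in KO and 1 higher and 3 lower in WT, with Srxn1, which repairs oxidised peroxiredoxins, at -1.86 in KO and -1.58 in WT. Of 14 genes for cofactor supply, 2 were higher and 2 lower in KO and 3 higher and 2 lower in WT, among them Papss1, which makes the sulfate donor, at 0.83 in KO and 1.25 in WT. Of 7 electron donors, Pgrmc1 alone was called, higher in WT (0.66 ± 0.21, adjusted p = 0.0298). Of 12 steroid dehydrogenases and reductases, 1 was lower in KO, and 1 was higher and 1 lower in WT. Hsd17b2, which inactivates sex steroids, was lower in KO (-2.15 ± 0.48, adjusted p = 0.00842), and Hsd11b1, which reactivates glucocorticoid, was higher in WT (3.32 ± 0.91, adjusted p = 0.0169).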

How the data were processed

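The measurement was bulk RNA-seq of mRNA from 12 libraries, 3 in each of 4 groups taken from the sample titles. A strand-preserving library kit and Illumina sequencing were used, per the labels' protocols. The authors deposited raw counts per Ensembl gene. Reads were aligned with STAR to GRCm38 (mm10), per the submitters' processing notes, while no source read for this work gives the counting tool, annotation or strand setting. Entries of 2 (24184) outnumber entries of 1 (8495) in the deposited counts, so a low count may hold fewer fragments than its number. Identifiers were matched to GENCODE M21 (54042 of 54109), and 1 gene that fits the symbol rule is not reported here. The genes described and all lists were chosen with earlier results of these data known.

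Counts were tested with edgeR 4.0.16 (TMM, filterByExpr with a minimum count of 10, robust quasi-likelihood fit, Benjamini-Hochberg adjustment over all genes tested) in R 4.3.3, with a call at adjusted p under 0.05. A standard error is the log2 fold change divided by the square root of F. KO was compared with WT in the 6 libraries of each tissue, and tissues and the difference of differences were fitted on all 12. Levels are TMM-scaled CPM, divided by the union exon length in kb where genes are compared. A group at 0 was given a limit of 3 counts over the group. Windows shared between genes are 50-base runs of annotated transcripts. The steps were tested on simulated data. Tables were handled with Python 3.11.15, pandas 2.3.3 and numpy 2.4.6, and figures were drawn with matplotlib 3.10.9.

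Genes were named if called between genotypes, if among the 6 lowest p-values per direction between genotypes, if among the 4 highest per family in a tissue, or if among the 4 lowest p-values per direction and superfamily in the WT tissue comparison, with 4 per comparison from the other lists. Cyp11a1, Cyp11b1, Cyp11b2, Cyp24a1, Cyp2a12, Cyp2c23, Cyp2c29, Cyp2c66, Cyp2c70, Cyp2d22, Cyp2e1, Mc2r, Nr5a1 and Hsd3b1 fall outside that rule and were named after their values were seen. Same-numbered LPMC and colon libraries deviated together from their group means over 14028 genes (r of 0.138, 0.418 and 0.314 in KO, 0.216, 0.174 and 0.295 in WT). In KO, 1 LPMC library correlated best with the colon library of its own number, against 3 in WT. Same-numbered KO and WT libraries did not deviate together (lowest r of -0.414 in LPMCs and -0.23 in colon). The main tissue fits were unpaired, and numbers were treated as pairs only in the replicate block. Replicates differed by far more than sampling noise. Alternatives were DESeq2 1.42.0, DESeq2 size factors, no filter, a replicate block, the other set of libraries, scaling to 12 epithelial markers, and leaving out each library.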

Additional observations from a re-analysis of the deposited data

How the results depend on the processing

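Of 178 counts and medians recomputed under other settings, 168 stayed within 1.5 times of the count or within the spread between replicates of the median, which for medians near 0 allows a change of sign. The median of the enzymes changed sign in that way in colon KO over WT (-0.15 without colon KO replicate 2), in LPMC WT over colon WT (-0.03 without LPMC WT replicate 1) and in LPMC KO over colon KO (0.11 with a replicate block, 0.04 on the 6 KO libraries, and 0.06, 0.05 and 0.13 without LPMC KO replicate 3, colon KO replicate 1 and colon KO replicate 2). Of 1069 values of single genes 998 kept their direction and side of the threshold. Scaling to epithelial markers put the median log2 fold change of all genes at 0.24 for LPMC KO over colon KO, 0.44 for LPMC WT over colon WT, 0.36 for colon KO over WT, 0.14 for LPMC KO over WT and -0.21 for the difference of differences. Under it the median of the enzymes was -0.01 in LPMC KO over WT, 0.37 in LPMC KO over colon KO and 0.58 in LPMC WT over colon WT, 10 enzymes in place of 17 were lower in LPMC WT (26 higher), and Ugt1a6a was at 0.00 in place of -0.41. Leaving out 1 library at a time moved the median between -0.16 and -0.09 in LPMC KO over WT and between -0.56 and 0.05 for the difference of differences, and the enzymes called in LPMC KO over colon KO between 19 and 28, with 7 to 15 higher. Values of single genes without 1 library spanned, for colon KO over WT, -1.78 to 5.14 for Cyp2c65, -0.09 to 2.09 for Cyp2d26 and -0.17 to 0.96 for Cyp2s1, each lowest without colon KO replicate 2, and for LPMC KO over WT -0.01 to 0.16 for Gstm3, lowest without LPMC WT replicate 1. For LPMC KO over colon KO they spanned -0.04 to 0.29 for Gstm2 (-0.02 without colon KO replicate 1) and -0.21 to 0.71 for Sult1c2 (-0.04 without colon KO replicate 3), both lowest without LPMC KO replicate 2. The replicate block, which pairs LPMC and colon libraries of 1 number, left 26 enzymes called in KO (23 shared with the fit without it) and 37 in WT (33 shared), and between genotypes, where the numbers pair nothing, it called 0 of all genes. The cause of these changes was not tested, and depth limits the precision of the 29 enzymes with 1 to 20 counts in all.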
